A study of Mus musculus with 6 samples.

Results

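Ifi204, Ifi205, Slfn1, Slfn8, Parp14 and Helz2 are genes that interferons induce in mouse cells, grouped here as linked to the nucleus or to nucleic acids. They were taken by symbol, and all 6 were found among the 632 genes of the table that was analysed. The table comes from epithelial cells that were sorted by flow cytometry from digested prostates of 3-month-old mice of the C57BL/6 strain. It gives 3 libraries from mice with an E-cadherin conditional knockout (cKO) and 3 from control littermates. E-cadherin is the adhesion receptor that joins epithelial cells to each other. The sources used here name neither the promoter that drives the knockout nor the marker used for sorting. Nothing in the labels ties a library to its own animal, and the p-values therefore rest on spread among libraries that may be technical. Titles of cKO libraries carry the mark L7 and those of control libraries the mark L2, so genotype and whatever these marks stand for cannot be told apart.

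Interferons bind receptors at the cell surface and act through STAT and IRF transcription factors, which bind short DNA elements near their target genes. The Ifi200 genes encode proteins with a HIN domain, a DNA-binding fold, and the product of Ifi204, p204, takes part in the sensing of DNA in mouse macrophages. Ifi205 encodes p205, a related protein of the same gene cluster. Schlafen genes affect the growth of lymphoid and myeloid cells in mice. Slfn1 is of the short type, and Slfn8 is of the long type, which has a helicase-like part. Parp14 encodes an ADP-ribosyltransferase with macrodomains that is a cofactor of STAT6, and Helz2 encodes a helicase with zinc fingers that acts as a coactivator of PPAR nuclear receptors. All of these genes are also expressed in leukocytes.

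Promoter windows of RefSeq (build GRCm38.p6) run from 250 bases before to 50 bases after a start site, and 4 of the 6 genes have one, namely Ifi205, Slfn1, Slfn8 and Helz2. They were searched on both strands for GAAA repeated after a spacer of 2 bases, the core of the interferon-stimulated response element (ISRE), and for GAAANGAAA, the same core with a spacer of 1 base. These patterns were chosen after the windows had been read, and a further pattern that was searched is not reported here. The windows with a match are shown because they hold letters of these patterns, with each match in capitals. Whether the matches act in these genes was not tested.
Ifi205: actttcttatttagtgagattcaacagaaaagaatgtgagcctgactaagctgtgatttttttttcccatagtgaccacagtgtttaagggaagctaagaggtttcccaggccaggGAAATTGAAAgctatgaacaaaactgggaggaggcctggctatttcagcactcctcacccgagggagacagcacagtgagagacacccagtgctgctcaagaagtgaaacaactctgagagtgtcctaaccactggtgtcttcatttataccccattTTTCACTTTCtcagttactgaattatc
Slfn8: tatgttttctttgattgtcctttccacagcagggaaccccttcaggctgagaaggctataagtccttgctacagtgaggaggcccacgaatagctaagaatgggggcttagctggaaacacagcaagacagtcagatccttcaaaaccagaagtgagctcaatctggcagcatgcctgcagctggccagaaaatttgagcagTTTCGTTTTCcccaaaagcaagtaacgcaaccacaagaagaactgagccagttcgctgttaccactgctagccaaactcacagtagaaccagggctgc
Helz2: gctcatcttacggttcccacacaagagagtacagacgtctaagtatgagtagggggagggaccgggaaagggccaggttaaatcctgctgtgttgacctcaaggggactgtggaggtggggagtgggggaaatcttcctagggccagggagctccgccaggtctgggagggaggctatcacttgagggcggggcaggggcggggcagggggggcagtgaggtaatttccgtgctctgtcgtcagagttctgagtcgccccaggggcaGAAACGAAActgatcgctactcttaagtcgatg
The Ifi205 window (chr1:174031706-174032005, minus strand) held the ISRE core at position -134 on the strand of the gene, and at position 24 on the opposite strand, positions being counted from the start site. The Slfn8 window (chr11:83020761-83021060, minus strand) held the ISRE core at position -48 on the opposite strand, and Slfn8 has a further window that covers the same match. The Helz2 window (chr2:181241978-181242277, minus strand) held GAAANGAAA at position 18 on the strand of the gene. The Slfn1 window held neither pattern. Of 32851 promoter windows in all, 3.44% held the ISRE core and 3.17% held GAAANGAAA. Of the 510 windows that belong to genes of the table, 7.65% held the ISRE core and 3.92% held GAAANGAAA. The ISRE core and GAAANGAAA can overlap, and 0.335% of all windows held both. A match describes letters only, and binding was not measured.

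Values are taken as FPKM, read fragments scaled to transcript length and library size, so levels can be compared between genes. Cdh1, the gene of E-cadherin, was not analysed here, so the knockout was not checked on it. The depth behind the values is unknown, and low values are the less precise for it. The deposited table is named as one of differential genes between groups, and the sources used here do not give the rule of selection. A call in this table is therefore no independent evidence of a difference. Counts of called genes are to be read against the share of the table called the same way. Log2 differences are cKO minus control on the log2(FPKM + 1) scale from limma, with Benjamini-Hochberg adjustment over the 632 genes and a threshold of 0.05.

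All 6 genes rose in the cKO libraries by limma, between 1.74-fold (Parp14) and 4.16-fold (Slfn1) as ratios of mean FPKM, while Parp14 and Helz2 had differences slightly below 0, not called, when the cKO values were divided by the median ratio of the table. In each of the 6, every cKO library was above every control library. This is near the background of the table, of which limma called 65.3% higher and 7.28% lower in cKO, and in 66.9% every cKO library was above every control library. In 82.6% of its genes the groups did not overlap in either direction. Centred on the median ratio of the table (a log2 shift of 0.93), limma called 0 of the 6, beside 11.2% of the table higher and 25.8% lower. Centred on the midpoint of the gap between rises and falls it called all 6 higher, beside 61.7% of the table higher and 18.8% lower. Of the genes called, the share that was higher was 90.0% without centring, 30.3% on the median ratio and 76.6% on the midpoint. Their median ratio was 2.02-fold, beside 1.91-fold over the 623 genes of the table with a finite ratio, and that of the 4 genes other than the Schlafen genes was 1.87-fold. On the log2(FPKM + 1) scale the median difference was 0.61 over the 6 and 0.66 over all 632 genes.

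**Figure D1:**
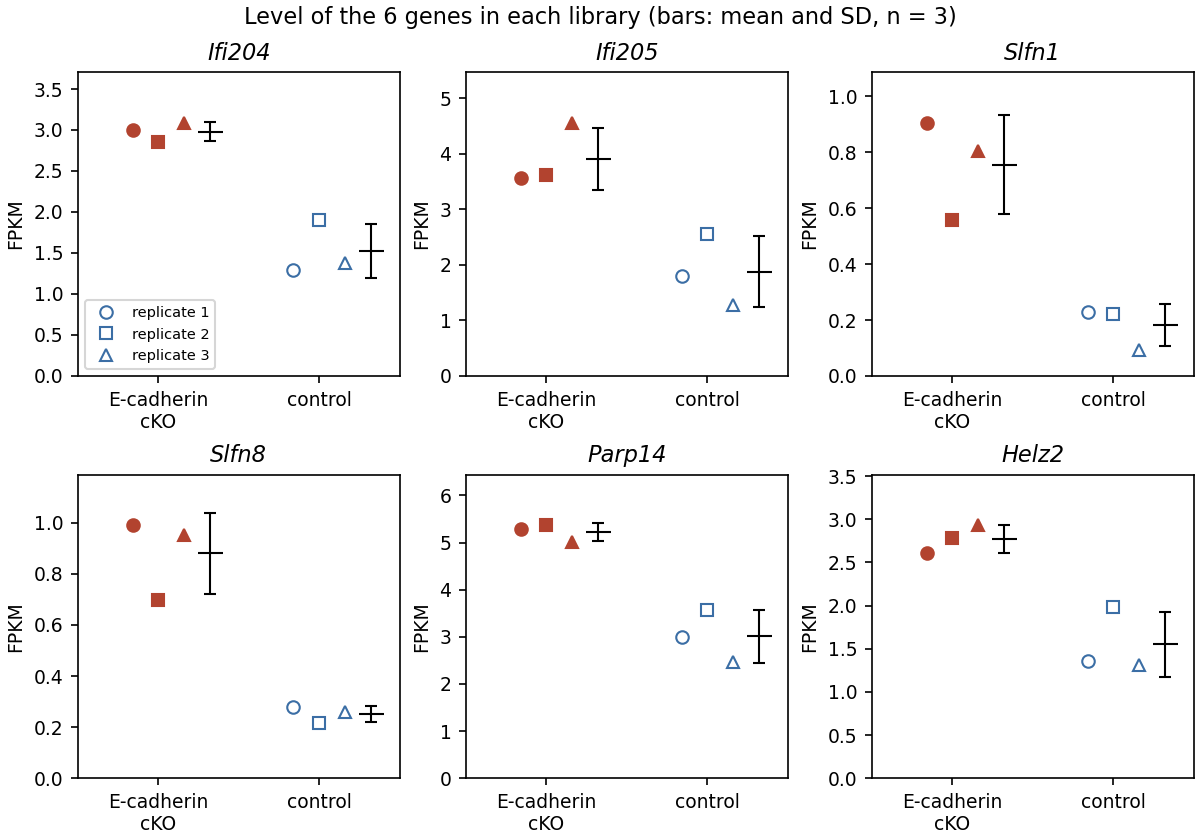
FPKM (vertical axis, from 0) of each of the 6 genes in the 3 E-cadherin cKO libraries (filled, left) and the 3 control libraries (open, right), with marker shape giving the replicate and bars the mean and SD. In every panel the lowest cKO library lies above the highest control library, by the smallest factor in Helz2 (1.31-fold) and the largest in Slfn8 (2.49-fold).

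Among the Ifi200 genes, Ifi204 (ENSMUSG00000073489, GRCm38 chromosome 1, 173747293 to 173766943, minus strand) had 3.00, 2.86 and 3.09 FPKM in cKO libraries 1 to 3, against 1.30, 1.90 and 1.38 FPKM in control libraries 1 to 3. The cKO values lay close together and the groups did not overlap. Ifi204 averaged 2.98 ± 0.12 FPKM in cKO and 1.52 ± 0.33 FPKM in control (SD, n = 3 each), a 1.96-fold rise (limma log2 difference 0.66, SE 0.14, adjusted p = 0.0063).

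Ifi205 (ENSMUSG00000054203, chromosome 1, 174011998 to 174031810, minus strand), which lies 245 kb from Ifi204, had 3.56, 3.62 and 4.55 FPKM in cKO libraries 1 to 3, against 1.80, 2.56 and 1.28 FPKM in the control libraries. Its controls spread the most of the 4 genes that averaged above 1 FPKM in control, with an SD of 34.3% of their mean, beside 14.3% of the mean in cKO. Ifi205 averaged 3.91 ± 0.56 FPKM in cKO and 1.88 ± 0.64 FPKM in control, a 2.08-fold rise (limma log2 difference 0.79, SE 0.20, adjusted p = 0.012).

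Slfn1 (ENSMUSG00000078763, chromosome 11, 83116849 to 83122670, plus strand) was the lowest of the 6 and had 0.905, 0.559 and 0.804 FPKM in cKO libraries 1 to 3, against 0.230, 0.220 and 0.0943 FPKM in the control libraries. The third control library was well under the other two, and no library was at 0. Slfn1 averaged 0.756 ± 0.178 FPKM in cKO and 0.182 ± 0.076 FPKM in control, a 4.16-fold rise (limma log2 difference 0.57, SE 0.11, adjusted p = 0.0050).

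Slfn8 (ENSMUSG00000035208, chromosome 11, 83002158 to 83020810, minus strand), 96.0 kb from Slfn1, had 0.991, 0.699 and 0.953 FPKM in cKO libraries 1 to 3, against 0.280, 0.217 and 0.260 FPKM in the control libraries. As in Slfn1, cKO library 2 was the lowest cKO library. Slfn8 averaged 0.881 ± 0.159 FPKM in cKO and 0.252 ± 0.032 FPKM in control, a 3.49-fold rise (limma log2 difference 0.58, SE 0.095, adjusted p = 0.0030).

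Parp14 (ENSMUSG00000034422, chromosome 16, 35832874 to 35871544, minus strand) was the highest of the 6 and had 5.28, 5.37 and 5.005 FPKM in cKO libraries 1 to 3, against 2.99, 3.57 and 2.46 FPKM in the control libraries. The cKO libraries agreed within an SD of 3.65% of their mean, and the controls within 18.6%. Parp14 averaged 5.22 ± 0.19 FPKM in cKO and 3.01 ± 0.56 FPKM in control, a 1.74-fold rise (limma log2 difference 0.64, SE 0.15, adjusted p = 0.010).

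Helz2 (ENSMUSG00000027580, chromosome 2, 181227615 to 181242027, minus strand) had 2.61, 2.78 and 2.93 FPKM in cKO libraries 1 to 3, against 1.36, 1.99 and 1.31 FPKM in the control libraries. Its second control library came nearest to the cKO range. Helz2 averaged 2.78 ± 0.16 FPKM in cKO and 1.55 ± 0.38 FPKM in control, a 1.79-fold rise (limma log2 difference 0.57, SE 0.14, adjusted p = 0.012).

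In cKO libraries the order of mean levels was Parp14, Ifi205, Ifi204, Helz2, Slfn8 and Slfn1. The ranges of Ifi204 and Helz2 overlapped, as did those of Slfn8 and Slfn1, and the other neighbours were separate. In control libraries the order was Parp14, Ifi205, Helz2, Ifi204, Slfn8 and Slfn1, and only Ifi204 and Slfn8 were neighbours with separate ranges. Both Schlafen genes were thus below the other 4 genes in either group. They also had the larger ratios. Against the control mean, single cKO libraries were 3.08-fold to 4.99-fold higher for Slfn1 and 2.77-fold to 3.93-fold higher for Slfn8, and at most 2.43-fold higher for any of the other 4 genes, the highest being Ifi205 in cKO library 3. On the log2(FPKM + 1) scale, where adding 1 weighs most on low values, Slfn1 had the smallest difference of the 6 and Slfn8 was above Slfn1 and Helz2 only. With 0.1 added in place of 1 the log2 difference was 1.62 for Slfn1 and 1.47 for Slfn8, and between 0.79 and 1.06 for the other 4.

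The ratios can be set beside those of genes at a like control level, as a description only, since the control mean is also the divisor of the ratio and the table is a selected one. In the table, all 63 genes with a control mean from 0.1 to below 0.5 FPKM and a finite ratio were higher in cKO, by at least 1.96-fold and with a median of 3.68-fold. Of these, 22 had a larger ratio than Slfn1 and 35 a larger one than Slfn8. At control means from 1 to below 5 FPKM, 161 of 181 genes were higher in cKO, with a median of 2.15-fold among those 161, and Ifi205, Ifi204, Helz2 and Parp14 were exceeded by 90, 104, 122 and 131 genes. The ratios of the 4 were all under that median.

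**Figure D2:**
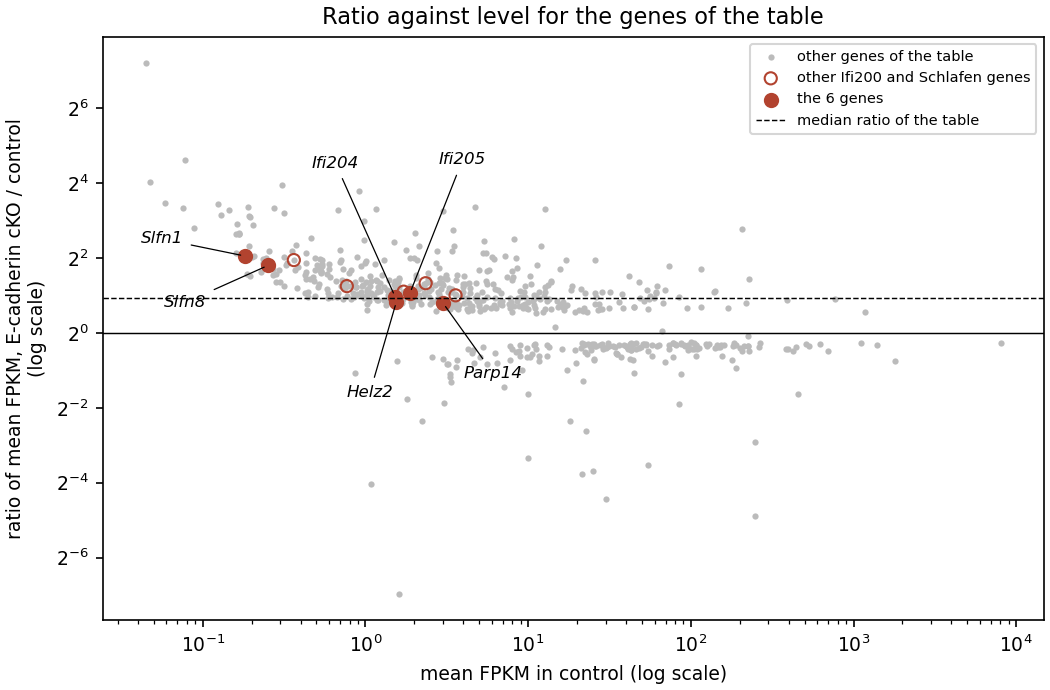
Ratio of mean FPKM in E-cadherin cKO over control (vertical, log scale) against mean FPKM in control (horizontal, log scale) for genes of the table with a finite ratio above 0. The 6 genes (filled red) and 5 further Ifi200 and Schlafen genes (open red) lie among the other genes of their level (grey), with Slfn1 and Slfn8 above the dashed median ratio of 1.91 and Parp14 and Helz2 under it.

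The genes also differed in which libraries were high. Within the control group Ifi204, Ifi205, Parp14 and Helz2 were all highest in library 2, while Slfn1 and Slfn8 were both highest in library 1. The Schlafen leads were small and at low values. Slfn1 had 0.230 FPKM in control library 1 and 0.220 FPKM in control library 2. Slfn8 had 0.280 FPKM in control library 1 and 0.260 FPKM in control library 3. Of all 632 genes, 52.1% were highest in control library 2 and 36.7% in control library 1. Within the cKO group Slfn1 and Slfn8 were both highest in library 1 and lowest in library 2, Ifi204, Ifi205 and Helz2 were highest in library 3, and Parp14 was highest in library 2. Without control library 2 the ratios of Ifi204, Ifi205, Parp14 and Helz2 were 2.23-fold, 2.54-fold, 1.92-fold and 2.08-fold. Leaving out any 1 library left all 6 genes called, at limma adjusted p-values of up to 0.045. The same fits called 365 to 410 of the 632 genes higher. These fits use the same list of differential genes, so they do not remove the effect of that selection.

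The likeness of profiles was measured as the root mean square difference, over the 6 libraries, of log2(FPKM + 1) less the control mean. Every gene was compared with the 631 others. Ifi205 was nearest to Irgm1, a GTPase gene induced by interferon (0.077), and Ifi47, another interferon-inducible GTPase gene, was also among its 3 nearest (0.089). Ifi204 was nearest to the extracellular matrix gene Fbln1 (0.017), and Tpm4 was also among its 3 nearest (0.037). Parp14 was nearest to BC064078, F13a1 and Penk, and Helz2 to Ier3, Slc25a24 and Tnfrsf1b. Slfn1 and Slfn8 differed by 0.065 from each other, which made Slfn8 the fourth nearest gene to Slfn1 and Slfn1 the fifth nearest to Slfn8. The 3 nearest genes were Car13, Hcar2 and Mcm5 for Slfn1, and Msr1, Map3k14 and Capg for Slfn8. For Ifi204, Helz2, Parp14 and Ifi205, the nearest of the 6 ranked no higher than place 19, 20, 29 and 72. Nearness of this kind is a description of these libraries and depends on the size of the difference as well as its shape.

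Other members of the same families were in the table and moved the same way. Of 13 Ifi200 genes on the list 6 were in the table, and all 6 rose by limma, with a median of 2.27-fold, beside 65.3% of the table called higher. Centred on the median ratio of the table, all 6 differences were above 0, and 1 of the 6 was called, Ifi213. On that centring 11.2% of the table was called higher. Mndal, a relative of the human gene MNDA, had 5.02, 5.66 and 7.04 FPKM in cKO libraries 1 to 3, against 1.57, 3.12 and 2.36 FPKM in the control libraries. Ifi203 averaged 3.70 ± 0.41 FPKM in cKO and 1.72 ± 0.74 FPKM in control (2.15-fold). The table names 2 further members by older symbols. AI607873, which is Ifi207 in GENCODE M21, averaged 1.83 ± 0.18 FPKM in cKO and 0.770 ± 0.131 FPKM in control (2.38-fold). Pydc4, which is Ifi213 in GENCODE M21, averaged 1.40 ± 0.17 FPKM in cKO and 0.364 ± 0.117 FPKM in control (3.86-fold). These 6 genes lie in 1 cluster on chromosome 1. Of 9 Schlafen genes 3 were in the table, and all 3 rose by limma, with a median of 3.49-fold, and on that centring all 3 differences were above 0 and 0 of the 3 were called. Slfn2, which keeps T cells and monocytes of mice in a resting state, was the most abundant of them at 7.20 ± 0.61 FPKM in cKO and 3.59 ± 0.86 FPKM in control (2.01-fold). The remaining Ifi200 and Schlafen genes were not analysed here.

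**Figure D3:**
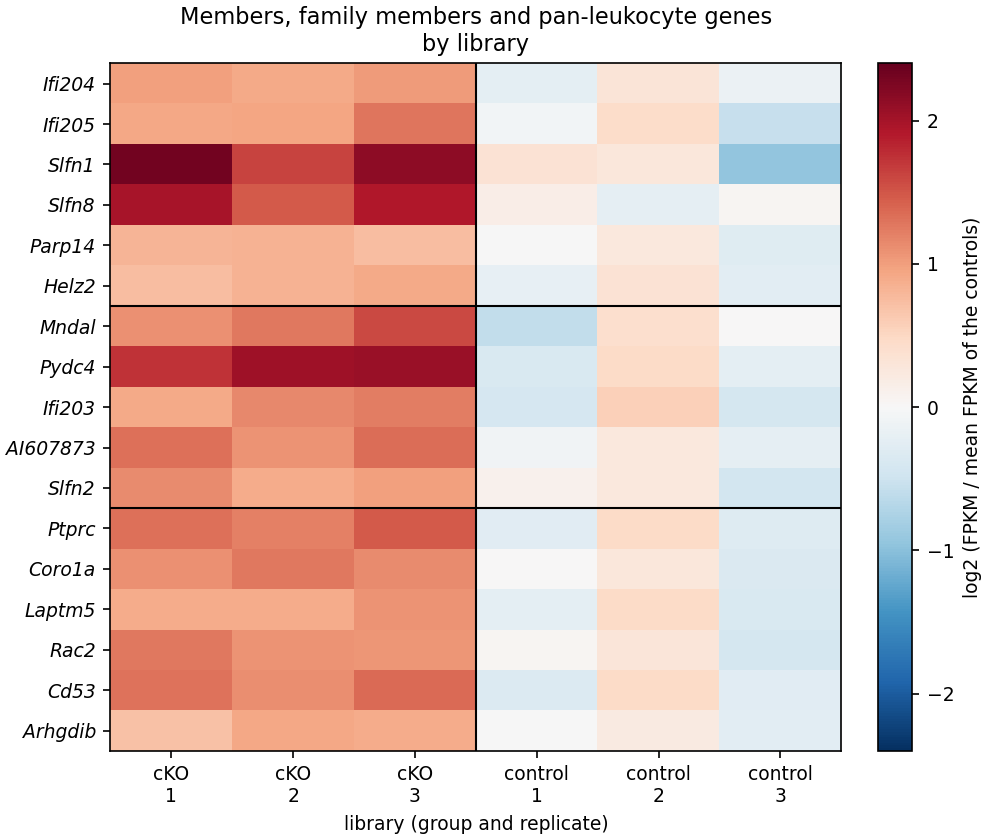
Log2 of FPKM over the mean FPKM of the controls (colour) for the 6 genes (top block), the 5 further Ifi200 and Schlafen genes (middle block) and 6 pan-leukocyte genes (bottom block), in cKO libraries (left 3 columns) and control libraries (right 3 columns). All rows are above the control mean in each cKO library, with the strongest colour in Slfn1, and control library 2 is above the control mean in all rows but Slfn8.

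Family members share sequence, which limits how reads can be assigned to one of them, and the sources used here do not say how such reads were counted. Among the transcripts of GENCODE M21, 20.0% of the 50-base stretches of Ifi204 and 18.6% of those of Ifi205 also occur in a transcript of another gene, most often Ifi211. The share was 14.6% for Slfn8, mostly with the pseudogene Slfn10-ps, and 0.606% for Slfn1. It was 0.667% for Parp14, all with Gm49730, an unclassified gene that overlaps Parp14 on the same strand, and 0 for Helz2. Stretches of 100 bases gave 10.7% for Ifi204, 15.0% for Ifi205 and 3.38% for Slfn8. As far as the assignment of reads goes, the levels of Ifi204, Ifi205 and Slfn8 are therefore less certain than those of Slfn1, Parp14 and Helz2. Apart from Gm49730, no annotated gene overlaps any of the 6.

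Parp14 adds ADP-ribose to proteins, and of 14 ADP-ribosylation genes on the list the only other one in the table was Macrod1, whose product removes ADP-ribose. Macrod1 had 76.3, 84.4 and 66.4 FPKM in cKO libraries 1 to 3, against 117, 91.8 and 94.4 FPKM in the control libraries. It averaged 75.7 ± 9.02 FPKM in cKO and 101 ± 14.1 FPKM in control, a ratio of 0.748 (limma log2 difference -0.41, SE 0.15, adjusted p = 0.046). This fall was no longer called without control library 1 or 3 or without any 1 cKO library (adjusted p = 0.056 to 0.14). Helz2 was the only one of 7 Helz and nuclear receptor coactivator genes in the table.

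Genes of the table from lists of nucleic acid sensors, interferon signalling and interferon effectors were mostly called higher too. Whether interferon acted on these cells was not tested. Of 29 sensors of nucleic acids and restriction factors 4 were in the table, and all 4 rose by limma. Centred on the median ratio of the table, 2 of the 4 were called higher and 0 lower, with Tmem173 at a log2 difference of -0.18. Zbp1, a sensor of Z-form nucleic acids, averaged 3.59 ± 0.12 FPKM in cKO and 0.885 ± 0.340 FPKM in control (4.05-fold), and the helicase gene Ddx60 averaged 0.994 ± 0.202 FPKM in cKO and 0.246 ± 0.085 FPKM in control (4.04-fold). Ddx58, which encodes the RNA sensor RIG-I, rose 1.91-fold, and Tmem173, which encodes the adaptor STING, rose 1.66-fold. Of 27 interferon signalling genes 5 were in the table and all 5 rose by limma, and on the same centring 1 of the 5 was called higher and 0 lower, with 1 difference below 0. Among them were Socs3, a feedback inhibitor of cytokine signalling (3.88-fold), the transcription factor gene Irf7 (2.65-fold), the ubiquitin-like modifier gene Isg15 (2.63-fold) and Usp18, a protease for Isg15 (2.72-fold). Of 47 interferon effector genes 23 were in the table, and 22 rose by limma, with a median of 2.34-fold over the 23. On the same centring 3 of the 23 were called higher and 0 lower, with 6 differences below 0. The largest differences on the log2(FPKM + 1) scale were those of Oasl2 (3.20-fold), Ifi27l2a (2.56-fold), Oas1g (3.57-fold) and Lgals3bp (2.38-fold), while the largest ratios were those of Oas3 (16.5-fold) and Oas2 (5.09-fold), added after their values were seen. The GTPase gene Iigp1 did not pass, at 2.47 ± 0.70 FPKM in cKO and 1.36 ± 0.75 FPKM in control (limma adjusted p = 0.073), and was singled out after its value was seen. These counts of genes that rose stand beside the 65.3% of the table that limma called higher. The centred counts stand beside 11.2% of the table called higher and 25.8% lower.

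Leukocyte genes were higher in the same libraries. Of 8 pan-leukocyte genes 6 were in the table (Ptprc, Coro1a, Laptm5, Rac2, Cd53 and Arhgdib), all 6 rose by limma, none was at 0 in any library, and their sum was 54.5 to 59.2 FPKM in cKO and 22.5 to 35.7 FPKM in control. Of 18 macrophage and monocyte genes 11 were in the table and all 11 rose by limma, with sums of 387 to 403 FPKM in cKO and 180 to 215 FPKM in control. Of 9 B and plasma cell genes 6 were in the table and all 6 rose by limma, with sums of 393 to 579 FPKM in cKO and 105 to 173 FPKM in control. Of 8 dendritic cell genes 3 were in the table and all 3 rose by limma, with sums of 5.04 to 5.79 FPKM in cKO and 1.60 to 2.70 FPKM in control. Of 12 T and NK cell genes the table held Thy1 alone, and of 7 neutrophil genes it held none. None of 10 luminal epithelial genes was in the table, so the sorted cell type could not be checked on them. These counts too stand beside 65.3% of the table called higher. Centred on the median ratio, limma called higher 0 of the 6 pan-leukocyte genes, 0 of the 11 macrophage and monocyte genes, 4 of the 6 B and plasma cell genes and 1 of the 3 dendritic cell genes, did not call Thy1, and called none of these genes lower. On that centring 11.2% of the table was called higher and 25.8% lower. The differences of Arhgdib, Lyz2 and Thy1 were below 0 on that centring. With 1 value per gene and library, more cells of a type and more RNA per cell cannot be told apart.

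The 6 genes fell into 3 pairs when set against the pan-leukocyte genes, a comparison chosen after the values were seen. All 6 are divided by the same sums, so the pairs follow the order of the ratios given above and are no separate evidence. The share of the table with separate groups on such a measure was not counted, so separation here is a description only. Per 100 FPKM of the summed pan-leukocyte genes, Slfn1 stood at 0.969 to 1.66 FPKM in cKO and 0.419 to 0.879 FPKM in control. Slfn8 stood at 1.21 to 1.82 FPKM in cKO and 0.608 to 1.15 FPKM in control, so both Schlafen genes were higher in all cKO libraries by this measure too. Ifi204 stood at 4.96 to 5.51 FPKM in cKO and 4.96 to 6.13 FPKM in control, and Ifi205 at 6.28 to 7.69 FPKM in cKO and 5.68 to 7.17 FPKM in control. For this pair the groups overlapped. Parp14 stood at 8.45 to 9.70 FPKM in cKO and 10.0 to 11.4 FPKM in control, and Helz2 at 4.79 to 4.95 FPKM in cKO and 5.21 to 5.83 FPKM in control. Both were lower in all cKO libraries by this measure. Against the macrophage and monocyte genes the ratios of group means were 2.05 for Slfn1, 1.68 for Slfn8 and 1.03 for Ifi205. They were 0.961 for Ifi204, 0.881 for Helz2 and 0.851 for Parp14. Only the groups of Slfn1, Slfn8 and Parp14 were separate there, so Helz2 and Parp14 did not stay a pair. These marker genes belong to the same selected table, and their part in the differences of the 6 genes was not tested.

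**Figure D4:**
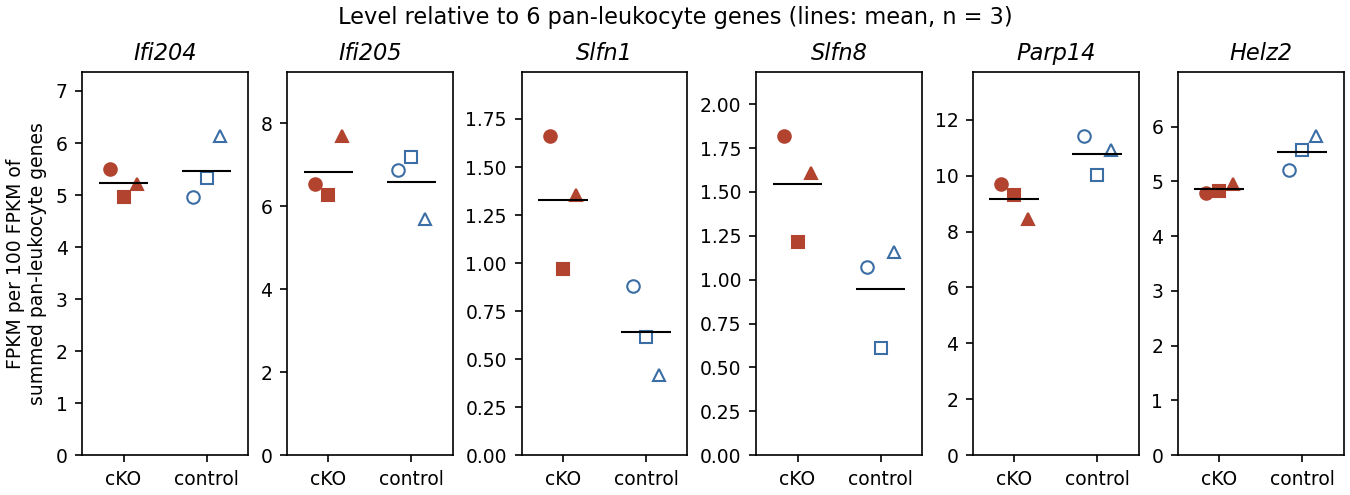
FPKM of each gene per 100 FPKM of the summed 6 pan-leukocyte genes (vertical axis, from 0) in the 3 E-cadherin cKO libraries (filled, left) and the 3 control libraries (open, right), with circles, squares and triangles for replicates 1, 2 and 3 and lines for the mean. Slfn1 and Slfn8 are higher in all cKO libraries, Ifi204 and Ifi205 overlap, and Parp14 and Helz2 are lower in all cKO libraries. The share of the table with separate groups on this scale was not counted.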

How the data were processed

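The deposited table holds 1 value per gene and library for 632 genes. Per the submitters' processing notes, TopHat2 2.0.14, Cufflinks 2.2.1 and Cuffdiff were used with GRCm38, without role or order. The unit, FPKM normalised by the authors, was inferred from these tools and from the values, since no header names it. The labels name a bulk library kit and a droplet kit, and which was used is not settled. The authors' deposited group means differed from the library means by at most 4.95e-06 (relative). Between control libraries, 6 of 23, 10 of 34 and 8 of 31 ratios of values under 0.3 FPKM came within 0.005 (relative) of ratios of small whole numbers at the best scale, so reads were not recovered and depth is unknown. FPKM share out a library's total, so a rise of abundant genes lowers other values.

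All 632 genes were fitted in R 4.3.3 with limma 3.58.1, whose prior followed the mean level, on log2(FPKM + 1), which understates changes of low genes, with Benjamini-Hochberg adjustment, a threshold of 0.05 and no filter. It was tested on simulated data that held no selection of genes, so the test cannot show how calls behave in a selected table. Folds are ratios of mean FPKM. Gene identifiers of all 632 matched GENCODE M21, which gave positions. Promoters are from RefSeq. Python 3.11.15 was used for the rest.

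The 6 genes and all lists were chosen with earlier results of these data known. Named genes are the 6, all Ifi200, Schlafen and ADP-ribosylation genes in the table, up to 4 genes of each other list with the largest log2 difference, and the 3 genes nearest in profile to each of the 6. Some results under this rule, and those of 1 further promoter pattern, are not reported here. Titles share no replicate numbers. Alternatives were another pseudocount, filter, prior, scaling, adjustment and threshold, an exact permutation test and leaving out each library. Other table columns were not used.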

Additional observations from a re-analysis of the deposited data

How the results depend on the processing

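All 6 genes stayed higher and called by limma with a pseudocount of 0.1, a constant prior, only genes above 0 in every library, centring midway between the smallest rises and the smallest falls (log2 shift 0.15), and without each library in turn. A minimum mean of 1 FPKM kept the 4 genes above it called and left out Slfn1 and Slfn8. At an adjusted p of 0.01, 3 of the 6 were called, and the share of the table called at that threshold was not counted. Without 1 library the log2 differences were 0.60 to 0.77 for Ifi204, 0.63 to 0.95 for Ifi205, 0.51 to 0.65 for Slfn1, 0.54 to 0.66 for Slfn8, 0.54 to 0.74 for Parp14 and 0.51 to 0.69 for Helz2. Centred on the median ratio of the table (log2 shift 0.93), 0 of the 6 were called, with 0.030 for Ifi204, 0.10 for Ifi205, 0.24 for Slfn1, 0.22 for Slfn8, -0.091 for Parp14 and -0.046 for Helz2, and Tmem173 was at -0.18. This scale sets the median gene of the list to 0 by construction. With p-values adjusted over 21951 protein-coding genes of the annotation, 0 of the 6 were called (adjusted p = 0.105 to 0.416), and over all 55450 annotated genes 0 (0.264 to 1). By the two-sided exact permutation test each gave p = 0.1, the smallest that 3 against 3 allows. The log2 differences under these adjustments and this test are those of all libraries (0.66 for Ifi204, 0.79 for Ifi205, 0.57 for Slfn1, 0.58 for Slfn8, 0.64 for Parp14 and 0.57 for Helz2).

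Of the whole table, limma called 413 genes higher and 46 lower, a share of 90.0% higher. It was 71 and 163 (30.3%) centred on the median ratio, 390 and 119 (76.6%) on the midpoint, 23 and 1 over protein-coding genes and 1 and 0 over all genes. Without 1 library 365 to 410 were called higher and 20 to 79 lower. Limma called 413 higher with a pseudocount of 0.1 and 416 with a constant prior. With only genes above 0 in every library 407 were called higher, and with a minimum mean of 1 FPKM 347. Of the other genes of the lists 71 were called higher and 1 lower, 13 and 1 centred on the median ratio, 6 and 0 over protein-coding genes and 0 and 0 over all genes, and 0 to 1 were lower without 1 library. No paired analysis was possible because the titles share no replicate numbers between groups. Depth is unknown, and the Schlafen values, under 1 FPKM in all libraries, are the least certain for it.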

Other observations

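Around the 6 genes, neighbours in the table were counted, beside 632 genes in the whole table and 21951 protein-coding genes in the annotation. Within 500 kb of Ifi204 and of Ifi205, 5 of 26 protein-coding neighbours were in the table, all of them Ifi200 genes and all called higher, as limma called 65.3% of the whole table. Within 500 kb of Slfn1, 4 of 26 were in the table, the Schlafen genes Slfn8 and Slfn2 and the chemokine genes Ccl5 and Ccl6. Ccl5 averaged 14.6 FPKM in cKO and 6.55 FPKM in control (2.22-fold), Ccl6 averaged 22.1 FPKM in cKO and 10.9 FPKM in control (2.03-fold), and limma called both higher. Within 500 kb of Parp14, 1 of 19 was in the table, the stefin gene Csta1, at 1.55 FPKM in cKO and 3.32 FPKM in control, which limma did not call. None of the 34 neighbours of Helz2 was in the table. Unlisted neighbours were not analysed here, and these genes were named after their values were seen.

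Structural cell markers outside the leukocytes were higher as well. Of 9 basal epithelial genes 5 were in the table, and all 5 were called higher by limma, beside 65.3% of the table, with sums of 168 to 202 FPKM in cKO and 85.4 to 115 FPKM in control. Of 11 fibroblast and smooth muscle genes 3 were in the table, and all 3 were called higher, with sums of 89.3 to 94.1 FPKM in cKO and 50.8 to 70.5 FPKM in control. Centred on the median ratio of the table, limma called higher 1 of the 5 basal genes and 0 of the 3 fibroblast and smooth muscle genes and called none of them lower, with the differences of Krt5, Krt14, Col1a1 and Col1a2 below 0. On that centring 11.2% of the table was called higher and 25.8% lower. None of 7 endothelial or 5 erythroid genes was in the table.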
